A study of Homo sapiens with 32 samples.

Results

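The loci of 6 genes of gluconeogenesis and glycolysis, PCK1, PCK2, FBP1, FBP2, PPARGC1A and PKLR, were followed through 18 ChIP-seq peak lists of the transcription factor HNF4α. A peak was assigned to a gene when its summit, the position of highest signal, lay within 50 kb of the gene's span. Overlapping peaks of different lists were merged into 1 site, which gave 69 sites near these genes among the 78729 merged regions of all lists. The genes were selected on peak positions, ranks and presence in these same lists, and the peaks define the sites, so the values below are a description without tests.

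The libraries came from 3 human pancreatic ductal adenocarcinoma cell lines grown in 2 dimensions. Panc10.05 cells carried doxycycline-inducible HNF4α of the P1 isoform α2 (P1-α2, 25 ng/mL doxycycline) or of the P2 isoform α8 (P2-α8, 12.5 ng/mL doxycycline). BxPC3 cells carried the same 2 isoforms, both induced with 500 ng/mL. ASPC1 cells carried CRISPR interference, in which a guide RNA brings a repressor to a promoter, with a control guide (sgNC) or a guide labelled for the P1 (sgP1) or P2 promoter (sgP2). These 7 groups were immunoprecipitated with an antibody to every isoform (pan-HNF4α), and a P1-specific antibody was also used on sgNC and sgP2. There were 2 replicate lists in each of these 9 groups, and the labels do not say whether these were separate cultures. In Panc10.05 the isoform and the dose differed together, the sample titles carry a different number prefix in each line, and lists of uninduced Panc10.05 or BxPC3 cells were not analysed here. The BxPC3 P2-α8 titles name α8 with P1, while the genotype label, which was used, reads P2-α8.

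HNF4α is a nuclear receptor of liver, gut and endocrine pancreas whose gene has alternative promoters, P1 and P2, that give isoforms with unlike N-termini. Gluconeogenesis makes glucose from lactate, amino acids and glycerol in liver and kidney, and HNF4α together with its coactivator PGC-1α is a classical activator of its genes in hepatocytes. Phosphoenolpyruvate carboxykinase and fructose-1,6-bisphosphatase catalyse steps that belong to gluconeogenesis, and pyruvate kinase catalyses the last step of glycolysis.

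Among the members' own promoters in the gene table, peaks lay on those of FBP1 and PCK2. The peak nearest to the 5′ end of the PKLR span lay on the promoter of its neighbour FDPS, which encodes farnesyl diphosphate synthase of the mevalonate pathway. These 3 are shown: the members' own promoters with a peak, and the promoter with a peak nearest to that end of the span. The promoter entries of PKLR itself, chr1:155301389-155301688 and chr1:155300903-155301202, lie farther inside the span. Other sites lay on promoters of neighbouring genes. Each line gives the 250 bases before the start, from RefSeq on GRCh38.p14, 5′ to 3′ in the direction of the gene, with any HNF4 half-site (AGGTCA on either strand) in capitals. The FBP1 sequence is chr9:94639519-94639768 on the minus strand, the PCK2 sequence is chr14:24094061-24094310 on the plus strand, and the FDPS sequence is chr1:155308616-155308865 on the plus strand.
FBP1: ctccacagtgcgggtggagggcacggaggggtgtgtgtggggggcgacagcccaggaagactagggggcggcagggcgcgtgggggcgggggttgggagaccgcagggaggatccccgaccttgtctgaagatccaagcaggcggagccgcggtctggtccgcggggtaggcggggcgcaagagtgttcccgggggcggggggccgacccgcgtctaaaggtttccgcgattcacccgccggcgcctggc
PCK2: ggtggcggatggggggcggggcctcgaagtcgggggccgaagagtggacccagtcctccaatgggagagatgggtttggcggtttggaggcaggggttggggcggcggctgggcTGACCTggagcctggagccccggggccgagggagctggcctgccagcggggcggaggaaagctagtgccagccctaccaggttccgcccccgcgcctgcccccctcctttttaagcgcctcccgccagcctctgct
FDPS: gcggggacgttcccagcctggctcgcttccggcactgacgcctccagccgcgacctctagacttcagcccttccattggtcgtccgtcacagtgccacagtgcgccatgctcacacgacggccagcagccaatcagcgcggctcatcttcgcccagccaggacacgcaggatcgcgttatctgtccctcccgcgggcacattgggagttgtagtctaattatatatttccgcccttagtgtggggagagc
Peaks overlapped the FBP1 promoter in 7 of the 18 lists, the PCK2 promoter in 9 and the FDPS promoter in 6. The median summit was 50 bp before the FBP1 start, 272 bp before the PCK2 start and 177 bp before the FDPS start. Of all 35116 promoters of the table, 5.33% were overlapped in at least 7 lists and 3.48% in at least 9. The promoters of FBP2, PPARGC1A (2 entries) and PKLR (2 entries) were overlapped in 0 lists. PCK1 has no promoter entry, so overlap with its promoter could not be counted.

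The letters CAAAGNNCA, the core of an HNF4 direct repeat, were searched on both strands of the 300-base promoter entries, from 250 bases before to 50 after the start. They occurred in 0 of the 7 entries of the members and in 5.28% of all entries. PCK1, without an entry, was not searched. The share was 13.3% among the 995 promoters overlapped in at least 10 lists and 4.91% among those overlapped in none. The half-site AGGTCA, added after this result, can lie inside CAAAGNNCA when its open letters are GT. It occurred on the minus strand of the PCK2 promoter, as TGACCT at position 115 of the printed sequence, and in neither of the other two. It was found in 12.1% of all promoters and in 12.96% of those overlapped in at least 10 lists.

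The number of peaks near the 6 genes differed by line and by isoform. Panc10.05 P1-α2 lists held 14 and 24 such peaks, and P2-α8 lists held 42 and 31. BxPC3 P1-α2 lists held 28 and 24, and P2-α8 lists held 12 and 12. The P2-α8 lists were thus the fuller in Panc10.05 and the emptier in BxPC3, with no overlap between isoforms in either line. How often other genes split in this way is not given here. The lists themselves differed in length: BxPC3 P1-α2 lists held 41808 and 33737 peaks and P2-α8 lists 12681 and 14666, whereas those of Panc10.05 overlapped, with 24828 and 34146 against 39111 and 33646. Per 10000 peaks of the list, the members' share was 5.64 and 7.03 for P1-α2 against 10.7 and 9.21 for P2-α8 in Panc10.05. In BxPC3 it was 6.70 and 7.11 for P1-α2 against 9.46 and 8.18 for P2-α8. On this scale P2-α8 was the higher in both lines, whereas the plain counts had opposite directions. The part of list length in this was not tested. Read depth is not given in the lists, so a longer list and more binding cannot be told apart.

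In ASPC1 the pan-HNF4α lists held 24 and 14 member peaks with sgNC, 13 and 12 with sgP1, and 9 and 14 with sgP2. The sgNC and sgP2 lists met at 14, sgNC lay above sgP1 by 1 peak, and the first sgNC list, which was also the longest of the line at 24295 peaks, stood above the other 5. Per 10000 peaks, the 6 lists ran from 7.29 to 10.3. The P1-specific antibody gave 1 and 0 member peaks with sgNC, in lists of 697 and 260 peaks, and 3 and 1 with sgP2, in lists of 5200 and 3916 peaks.

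**Figure D1:**
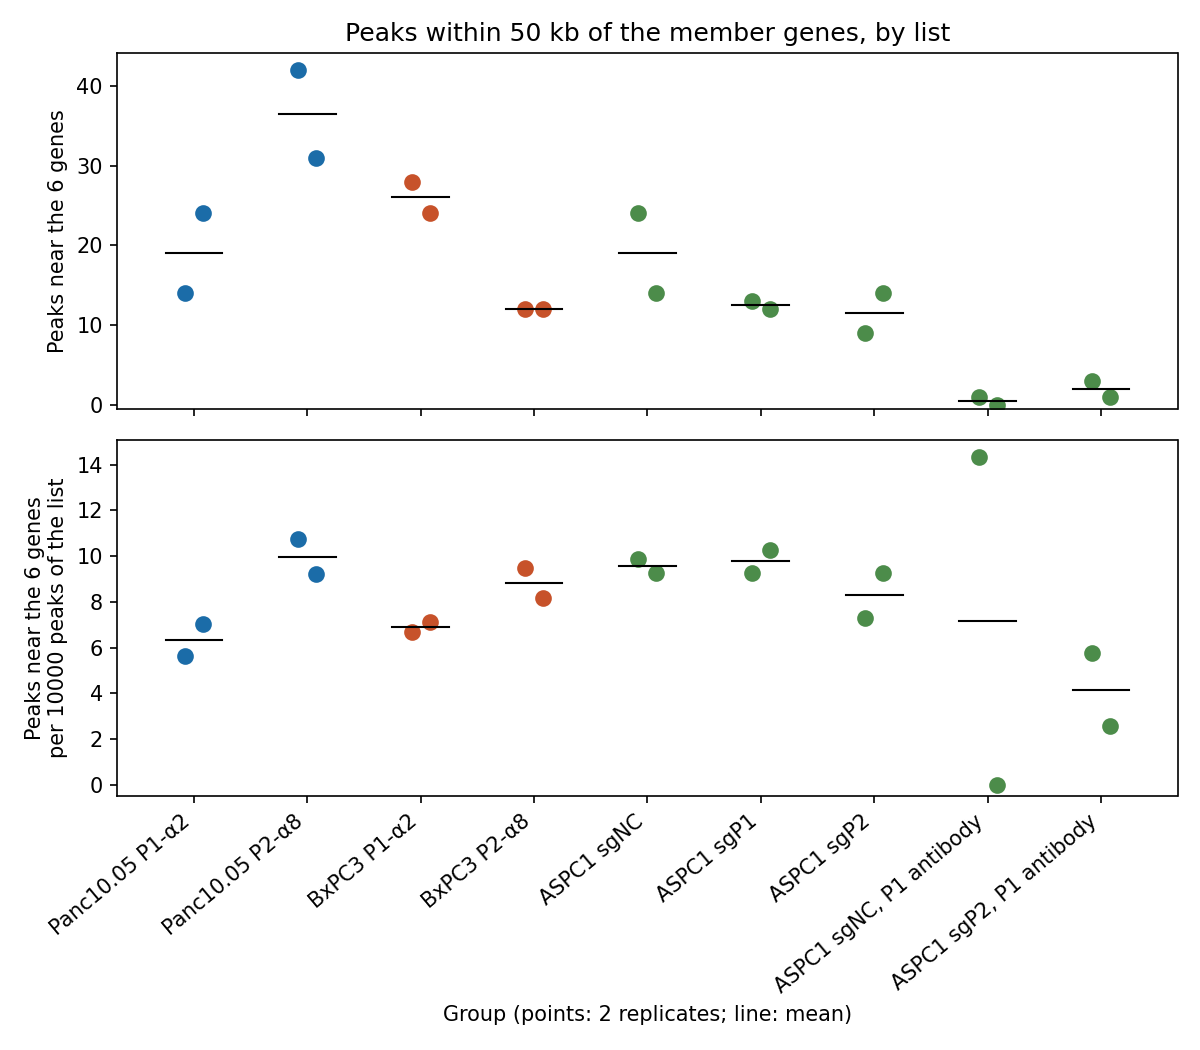
Number of peaks with a summit within 50 kb of the 6 genes (top) and the same per 10000 peaks of the list (bottom); points are the 2 replicate lists of a group and the line is their mean. The Panc10.05 P2-α8 lists, with 42 and 31, are the highest in the top panel, and P2-α8 lies above P1-α2 in both lines in the bottom panel.

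Most members had a peak in both lists of most pan-HNF4α groups, and so did many other genes. All 6 members did in Panc10.05 P1-α2, where 74.5% of all 20033 protein-coding genes did, in Panc10.05 P2-α8 (79.5% of genes) and in BxPC3 P1-α2 (76.6%). In BxPC3 P2-α8 it was 5 of 6, without PKLR (45.4%), in ASPC1 sgNC 5 of 6, without PPARGC1A (58.5%), and in sgP2 5 of 6, again without PPARGC1A (52.0%). In sgP1 it was 4 of 6, without PPARGC1A and PCK1 (50.6%). With the P1-specific antibody it was 0 of 6 in sgNC (2.31%) and 1 of 6, PCK2, in sgP2 (23.7%). PCK2, FBP1 and FBP2 had peaks in both lists of all 7 pan-HNF4α groups, as did 29.6% of genes. The windows of FBP1 and FBP2 overlap, so these genes are partly counted on the same peaks. In BxPC3, FBP2 was counted only through sites that lay nearer to FBP1. In the first 3 groups the background is so high that 6 of 6 says little about these genes.

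The sites were unequally spread among the genes. FBP1 had 17, PPARGC1A 16, PCK1 12, PKLR 12, PCK2 11 and FBP2 10, of which 9 lay in the windows of both FBP1 and FBP2, neighbours on chromosome 9. Per 100 kb of span plus window, the density was 12.4 sites at FBP1, 11.2 at PCK1, between 10 and 11 at PKLR and PCK2 and 7.40 at FBP2, against a median of 3.94 over all protein-coding genes. At PPARGC1A, whose annotated span is 681 kb long, it was 2.05, and 26.5% of genes had a density as low or lower. Of the 69 sites, 49 were seen in at least 2 lists and 20 in 1 list. The single-list share of 29.0% was near the 27.9% of all regions. Sites seen only in the induced lines numbered 42 (60.9%, against 63.8% of all regions), those seen only in ASPC1 11 (15.9%, against 13.01%) and those seen in all 3 lines 8 (11.6%, against 14.2%). Held by all 14 pan-HNF4α lists were 2 sites, 1 near PCK2 and 1 in FBP1 (2.90%, against 2.95% of all regions). As a group, then, the loci had about the line make-up of all regions, and the contrasts below are between the single genes.

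PCK1 encodes the cytosolic phosphoenolpyruvate carboxykinase, the hormone-regulated enzyme of liver and kidney gluconeogenesis. Its 12 sites all lay outside the 7.01 kb gene span at chr20:57561110-57568121, and 11 of them were absent from ASPC1. The most widely shared one, at chr20:57560399-57561214 with its median summit 0.332 kb before the gene's 5′ end, was seen in 13 lists. These were all 8 lists of the induced lines and 5 of the 6 ASPC1 pan-HNF4α lists.

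The peak beside the start ranked higher with P2-α8 than with P1-α2 in Panc10.05 and low in ASPC1. To compare a peak across lists of unequal length, its fold enrichment, the authors' linear ratio over background, was ranked within its own list as a percentile (100 is the strongest). In Panc10.05 the fold was 8.57 and 13.3 with P1-α2 (percentiles 12.5 and 42.9) and 18.5 and 12.8 with P2-α8 (percentiles 78.0 and 58.9). In BxPC3 it was 21.9 and 13.5 with P1-α2 (percentiles 89.3 and 74.7) and 12.7 and 17.0 with P2-α8 (percentiles 74.5 and 96.5). The isoforms did not overlap in percentile in Panc10.05 and did overlap in BxPC3. With 2 lists in a group, a split without overlap is easily met. The share of all regions that split in this way is not given, here or below. In ASPC1 the percentiles were 44.7 and 11.9 with sgNC, 35.8 in the first sgP1 list and none in the second, and 10.9 and 10.8 with sgP2. The ASPC1 lists admit peaks from a −log10 q of about 2 and the induced-line lists only from about 8. At a −log10 q of at least 8 the peak would remain in 1 list each of sgNC, at 12.997, and sgP1, at 8.11.

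Farther from PCK1, a pair of sites had percentiles of 67.4 to 99.4 in the Panc10.05 P2-α8 and BxPC3 lists and of 52.8 to 73.1 in the Panc10.05 P1-α2 lists that held them. The site at chr20:57546991-57547919, 13.7 kb before the gene, was seen in all 8 induced lists, with percentiles of 73.1 and 52.8 (Panc10.05 P1-α2), 97.6 and 97.9 (Panc10.05 P2-α8), 90.8 and 93.6 (BxPC3 P1-α2) and 97.1 and 67.4 (BxPC3 P2-α8). The site at chr20:57544575-57545459, 16.1 kb before the gene, was seen in 7 induced lists and was missing in the first Panc10.05 P1-α2 list. Its percentiles were 56.9 in the other P1-α2 list, 82.8 and 91.5 with Panc10.05 P2-α8, 98.2 and 99.4 with BxPC3 P1-α2, and 82.7 and 98.4 with BxPC3 P2-α8. At both sites the Panc10.05 P1-α2 lists ranked below those of P2-α8 without overlap, while in BxPC3 the isoforms overlapped at both.

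On the other side of PCK1, the site at chr20:57577341-57578306, 9.66 kb past the gene's 3′ end, was among the top peaks of Panc10.05 P2-α8. Its fold there was 47.4 and 37.3 (percentiles 99.2 and 98.3), and neither Panc10.05 P1-α2 list held it. In BxPC3 the same site was weak and did not separate the isoforms: the percentile was 39.5 in 1 P1-α2 list, and 27.6 and 22.2 in the P2-α8 lists. A site at chr20:57531858-57532666, 28.7 kb before the gene, went the other way between lines, with percentiles of 93.3, 86.9, 89.7 and 12.04 in the 4 BxPC3 lists and 30.4 in 1 Panc10.05 P2-α8 list. Sites 7.22 kb, 31.4 kb and 33.4 kb after the gene's 5′ end were seen in Panc10.05 alone, the first 2 of them with P2-α8 alone. A site 23.8 kb before the gene was seen in BxPC3 alone, with percentiles of 57.8 and 13.4 with P1-α2 and 9.98 in 1 P2-α8 list.

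**Figure D2:**
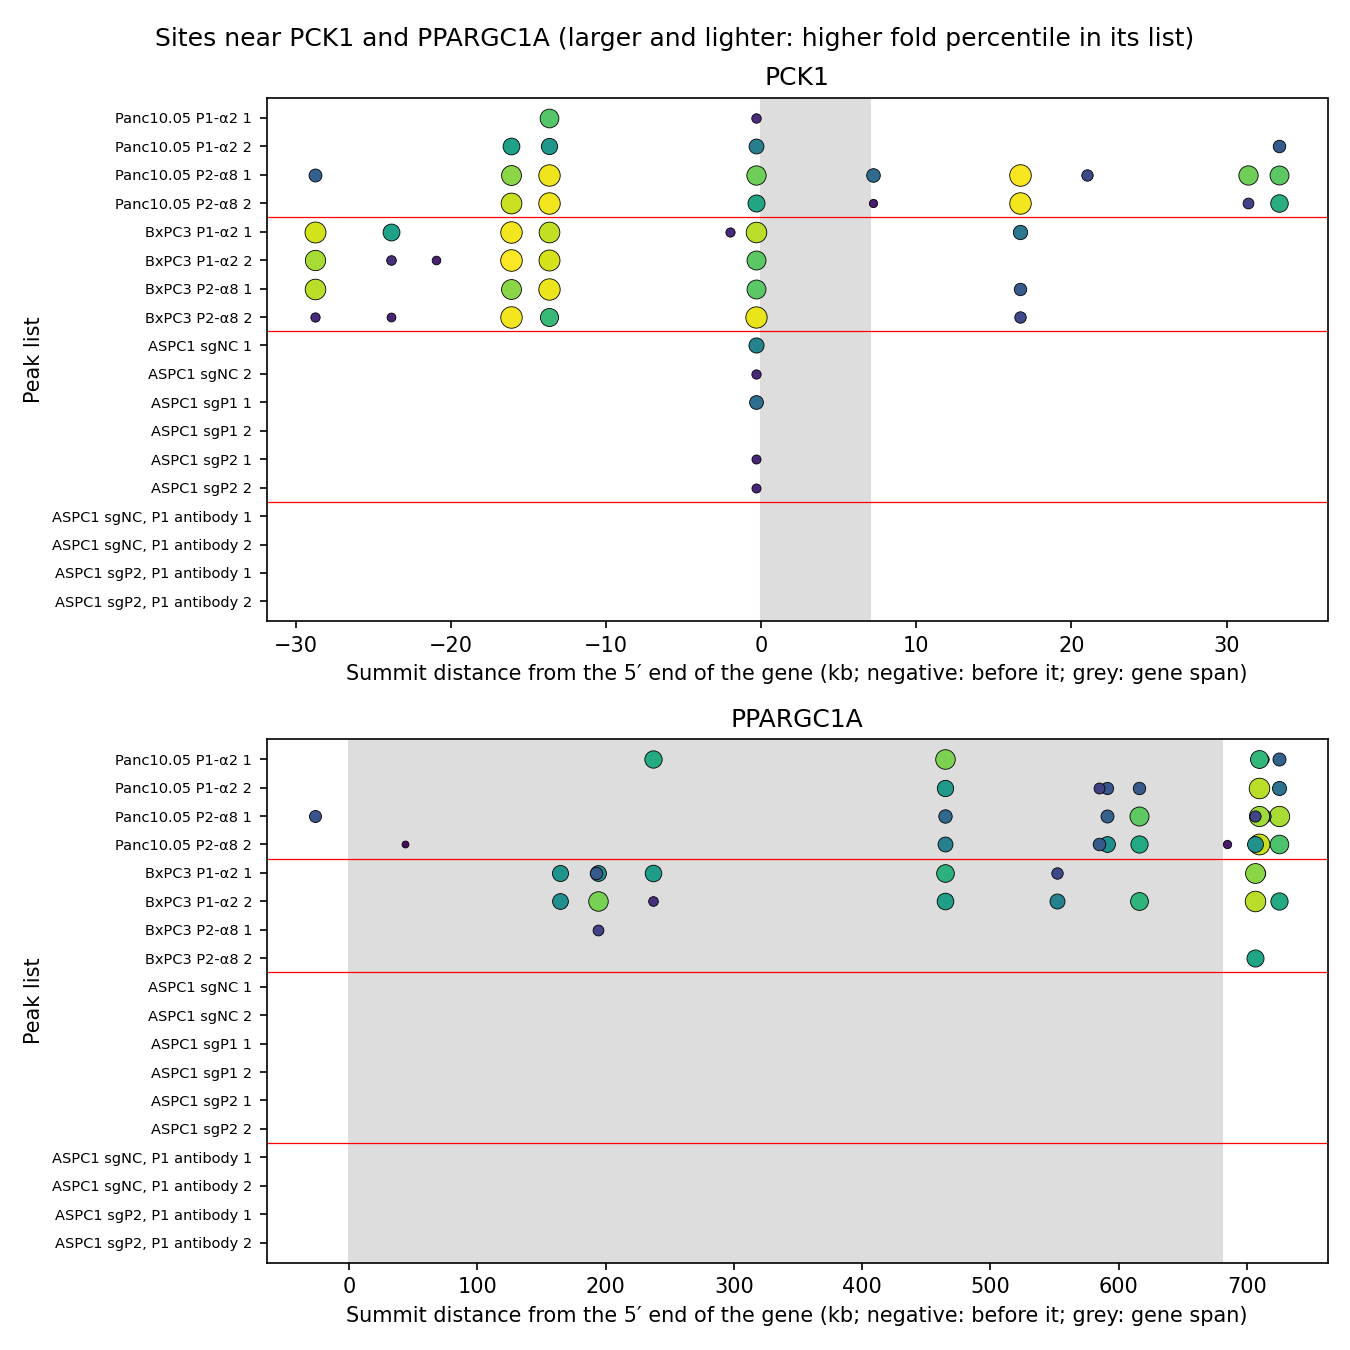
Sites near PCK1 (top) and PPARGC1A (bottom) in each of the 18 lists (rows); the horizontal axis is the distance of the site's median summit from the 5′ end of the gene in kb, grey marks the gene span, and larger, lighter points have a higher fold percentile in their list. Around PCK1 the ASPC1 lists hold a peak only at 0.332 kb before the gene, and around PPARGC1A they hold none.

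PCK2 encodes the mitochondrial phosphoenolpyruvate carboxykinase, which many tumour cells also use. The 11 sites near it included the most constant one of all members, at chr14:24113665-24114663, 9.91 kb past the 3′ end of PCK2 (span chr14:24094171-24104125). It lies inside the span of NRL, which encodes a retinal transcription factor, and its merged extent reaches the promoter of DCAF11. It was seen in 17 of 18 lists, missing only in the second sgNC list of the P1-specific antibody, which held 260 peaks in all.

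The rank of this PCK2 site was high in almost every list. Its fold was 28.7 and 56.7 (Panc10.05 P1-α2), 30.0 and 29.7 (Panc10.05 P2-α8), 39.1 and 33.5 (BxPC3 P1-α2) and 18.1 and 11.1 (BxPC3 P2-α8). In ASPC1 it was 34.4 and 24.0 (sgNC), 16.4 and 8.20 (sgP1) and 24.9 and 28.5 (sgP2). The percentiles were at least 88.6 in 12 of the 14 pan-HNF4α lists; the other two were 78.0 in a BxPC3 P2-α8 list and 63.7 in an sgP1 list. The sgP1 lists, at 89.3 and 63.7, ranked below those of sgNC (97.7 and 96.4) and sgP2 (95.9 and 96.9) without overlap. How often the guides split in this way over all regions is not given here, and a guide effect was not tested. With the P1-specific antibody the fold was 8.43 in 1 sgNC list and 16.7 and 14.4 in the sgP2 lists.

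At the PCK2 promoter itself, the site at chr14:24093659-24094333 was seen in 9 lists and did not fill most groups. It was in both lists of Panc10.05 P2-α8 (percentiles 60.6 and 34.6), of sgNC (42.4 and 9.78) and of sgP2 (53.5 and 31.9), in neither list of sgP1, and in 1 list each of the other induced groups. Another site, 19.2 kb before PCK2 inside the copine gene CPNE6, was seen in 10 lists, with percentiles of 67.3 to 79.9 in the 4 Panc10.05 lists. The site at chr14:24146553-24147149, between the proteasome activator gene PSME2 and the ubiquitin ligase gene RNF31, was held by all 6 ASPC1 pan-HNF4α lists (percentiles 38.9 to 76.6) but by only 1 of the 8 induced lists. The other sites near PCK2 were seen in at most 3 lists.

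FBP1 and FBP2 encode the fructose-1,6-bisphosphatases of liver and of muscle. The FBP1 span, chr9:94603133-94640263, held 4 sites, which differed by line. The site at chr9:94608216-94609159, 31.6 kb into the gene, was seen in 15 lists, all 14 of the pan-HNF4α antibody and 1 of the P1-specific antibody in sgP2. Its percentiles were 71.0 to 93.4 in ASPC1 with the pan-HNF4α antibody, 25.2 to 95.8 in BxPC3 and 10.2 to 50.9 in Panc10.05. Every ASPC1 pan-HNF4α list thus ranked it above every Panc10.05 list. The folds overlapped, at 9.90 to 23.2 in ASPC1 and 7.32 to 12.9 in Panc10.05. The ASPC1 lists admit peaks from a lower −log10 q, so the percentiles of the lines are not on the same footing.

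The site at chr9:94631418-94632162, 8.42 kb into FBP1, was seen in all 4 BxPC3 lists and in no other. Its fold was 19.7 and 18.8 with P1-α2 (percentiles 85.5 and 90.5) and 14.9 and 18.3 with P2-α8 (percentiles 85.2 and 97.7), so the isoforms overlapped. Of all 8633 regions that filled the 4 BxPC3 lists, 12.7% were likewise found in no other list. The site at chr9:94606639-94607293 was seen in 5 ASPC1 pan-HNF4α lists (percentiles 21.8 to 67.0) and in no induced list.

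The FBP1 promoter site, chr9:94639131-94640045, was seen in 7 lists and filled both lists of 2 groups. Its percentiles were 81.4 and 15.2 in Panc10.05 P2-α8 and 0.386 and 6.16 in BxPC3 P1-α2, with 8.85 in 1 Panc10.05 P1-α2 list, 65.6 in 1 sgNC list and 25.8 in 1 sgP1 list. BxPC3 P2-α8 and sgP2 lists held no peak there.

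The other sites that lay nearest to FBP1 and were in at least 2 lists were outside the gene. Each was held by the induced lines or by ASPC1, not by both. The most widespread, 46.3 kb before the 5′ end, was in 7 of the 8 induced lists, with percentiles of 58.8 and 66.0 (BxPC3 P1-α2), 32.6 and 44.7 (BxPC3 P2-α8), 36.0 and 46.4 (Panc10.05 P2-α8) and 14.3 in 1 Panc10.05 P1-α2 list. A site 2.73 kb past the 3′ end was in 3 BxPC3 lists (percentiles 12.97 to 41.8) and 1 Panc10.05 P2-α8 list, and a site 23.6 kb before the 5′ end was in 3 Panc10.05 lists (37.6 to 46.9). Sites 9.06 kb, 10.5 kb and 26.3 kb before the 5′ end were seen in ASPC1 alone, in 3, 2 and 2 lists. At 9.06 kb the −log10 q was 21.4 and 8.28 with sgNC and 6.82 with sgP1. With sgNC and sgP1 it was 6.30 and 4.30 at 10.5 kb, and 7.86 and 4.23 at 26.3 kb. The induced-line lists start only at about 8, so peaks like those at 10.5 kb and 26.3 kb would not be listed there. For these sites, absence from the induced lists does not separate the lines.

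The FBP2 span, chr9:94558720-94593824, held 2 sites, both of which also lay in the FBP1 window. The one at chr9:94576439-94577609 was seen in 9 lists, including all 6 ASPC1 pan-HNF4α lists, with percentiles of 28.3 to 72.5 there and 12.8 to 18.9 in 3 Panc10.05 lists. Its folds overlapped, at 5.39 to 9.91 in ASPC1 and 8.26 to 8.60 in Panc10.05, whose lists start at a higher −log10 q. Its summits spread over 640 bp, the widest of any member site, against a median of 85 bp over the member sites in at least 2 lists. A site 5.25 kb past the 3′ end of FBP2, also in the FBP1 window, was in 7 lists. Its percentiles were 51.2 to 70.7 in 4 ASPC1 lists and 16.4 to 51.7 in 3 Panc10.05 lists. Its folds were 7.17 to 9.72 in ASPC1 and 8.01 to 15.0 in Panc10.05. BxPC3 lists held none of the 5 sites that lay nearest to FBP2.

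PPARGC1A encodes PGC-1α, the coactivator that links fasting signals to HNF4α targets in liver and drives mitochondrial biogenesis. It was the member with the clearest difference between lines: 0 of its 16 sites had a peak in any of the 8 ASPC1 lists. The nearest summit of an ASPC1 pan-HNF4α list was 92.3 kb from the gene span, although these lists admit weaker peaks than those of the induced lines. Absence from ASPC1 was common: 73.4% of the 68486 regions seen in an induced list, and 68.1% of those seen in at least 2 of them, were in no ASPC1 list. A set of 16 such sites was less common. Of the 1157 protein-coding genes with at least 16 sites, 13 (1.12%), PPARGC1A among them, had no ASPC1 site, a count made after the result was seen. At the level of genes, 6.53% of all genes shared its pattern of peaks in both lists of Panc10.05 P1-α2, Panc10.05 P2-α8 and BxPC3 P1-α2 and in no ASPC1 list.

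In Panc10.05 and BxPC3 the strongest PPARGC1A sites lay past its 3′ end or deep in its long annotated span (chr4:23792021-24472905). The site at chr4:23763444-23764067, 28.3 kb past the 3′ end, had a fold of 16.8 and 34.9 with Panc10.05 P1-α2 and 21.8 and 24.4 with P2-α8 (percentiles 65.8, 89.7, 85.7 and 91.8). With BxPC3 P1-α2 the fold was 9.09 and 7.15 (percentiles 27.8 and 15.95), and BxPC3 P2-α8 lists held no peak there. A neighbouring site 25.5 kb past the 3′ end, at chr4:23766297-23766740, went the other way between lines. It had percentiles of 82.6 and 89.4 with BxPC3 P1-α2, 59.2 in 1 BxPC3 P2-α8 list, 20.9 and 50.1 with Panc10.05 P2-α8, and was not held by Panc10.05 P1-α2. The intragenic site at chr4:24007869-24008428 was in all 4 Panc10.05 lists (percentiles 80.1 and 53.6 with P1-α2, 33.4 and 43.2 with P2-α8) and both BxPC3 P1-α2 lists (63.8 and 56.0). Sites 165 kb and 552 kb into the gene were held by BxPC3 P1-α2 alone, in both lists.

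The remaining PPARGC1A sites in at least 2 lists divided by line. A site 44.4 kb past the 3′ end was in all 4 Panc10.05 lists, with percentiles of 31.2 and 37.9 with P1-α2 and 87.0 and 71.8 with P2-α8, and in 1 BxPC3 P1-α2 list (60.6). The isoforms did not overlap there in Panc10.05. An intragenic site 616 kb from the 5′ end had 75.2 and 60.3 with Panc10.05 P2-α8, 27.6 in 1 Panc10.05 P1-α2 list and 65.1 in 1 BxPC3 P1-α2 list. Sites 32.7 kb past the 3′ end and 584 kb and 591 kb into the gene were seen in Panc10.05 alone, in 3, 2 and 3 lists, with percentiles of 4.62 to 49.6. The site 591 kb into the gene, at chr4:23881810-23882358, lies shortly before an internal PPARGC1A promoter entry. That entry, chr4:23881052-23881351 on the minus strand, was not overlapped. A site 194 kb into the gene was in 3 BxPC3 lists (49.7 and 79.6 with P1-α2, 18.8 with P2-α8), and one 237 kb into it was in both BxPC3 P1-α2 lists (55.4 and 13.7) and 1 Panc10.05 P1-α2 list (61.1).

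PKLR encodes the pyruvate kinase of liver and red cells, and none of its 12 sites lay inside its span (chr1:155289293-155308654). The locus is gene-dense, and 11 of the sites lay inside or nearer to other protein-coding genes. The site at chr1:155323867-155325169, inside RUSC1 and 16.3 kb before the 5′ end of PKLR, was held by all 6 ASPC1 pan-HNF4α lists, with percentiles of 13.4 to 37.2. Of the 8 induced lists only 1, of Panc10.05 P2-α8, held it (percentile 47.1). Its −log10 q in ASPC1 was 7.65 and 5.11 with sgNC, 8.42 and 5.24 with sgP1, and 7.70 and 8.82 with sgP2. The induced-line lists start only at about 8, so the lines are not on the same footing at this site.

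At the 5′ end of the PKLR span, the site at chr1:155308299-155308914 between PKLR and FDPS was the only member site in both Panc10.05 P1-α2 lists and neither of P2-α8. Its fold was 11.4 and 15.5 (percentiles 36.4 and 54.3), with 6.23 (percentile 4.84) in 1 BxPC3 P1-α2 list and 4.60 to 4.90 in 1 list of each ASPC1 guide. The site on the promoter of the kinase gene CLK2, 35.0 kb downstream of the 5′ end, was seen in all 4 Panc10.05 lists (percentiles 10.8 to 43.4), in 4 ASPC1 pan-HNF4α lists and in no BxPC3 list. Sites 38.3 kb and 27.2 kb past the 3′ end of PKLR and 14.5 kb before its 5′ end were seen in 2 or 3 lists each, with percentiles of at most 33.1.

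Sites specific to an isoform, seen in both lists of 1 isoform and in neither of the other, were counted on regions merged anew from the 4 lists of a line. In Panc10.05, P1-α2 had 1 of 48 sites (2.08%, against 3.64% of all regions), the one beside FDPS. P2-α8 had 7 (14.6%, against 10.9%): 3 at PCK1, 3 at PCK2 and 1 at PPARGC1A. Leaving out 1 of the 4 lists gave up to 2 for P1-α2 and 9 to 19 for P2-α8, with 16 without the second P1-α2 list and 19 without the second P2-α8 list; 1 list is then enough for a group. Cutting each list to the same number of peaks gave 2 for P1-α2 and 3 for P2-α8 when ranked by fold, and 1 and 6 when ranked by −log10 p. In BxPC3, P1-α2 had 7 of 32 sites (21.9%, against 28.2%): 5 at PPARGC1A, 1 at the FBP1 promoter and 1 in the PKLR window. P2-α8 had 0 (against 0.129%). Leaving out 1 list gave 9 to 13 for P1-α2, the highest without its second list, and up to 1 for P2-α8. When the lists were cut to the same number of peaks, ranked on either fold or −log10 p, the BxPC3 counts became 0 for P1-α2 and 1 for P2-α8. The share lay below its background for P1-α2 in both lines and above it for P2-α8 in Panc10.05. These shares rest on few sites, so distances of this size from background say little about these genes. No background share is given here for lists cut to equal length. The PPARGC1A site 25.5 kb past the 3′ end was specific to P2-α8 in Panc10.05 and was held by both isoforms in BxPC3.

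**Figure D3:**
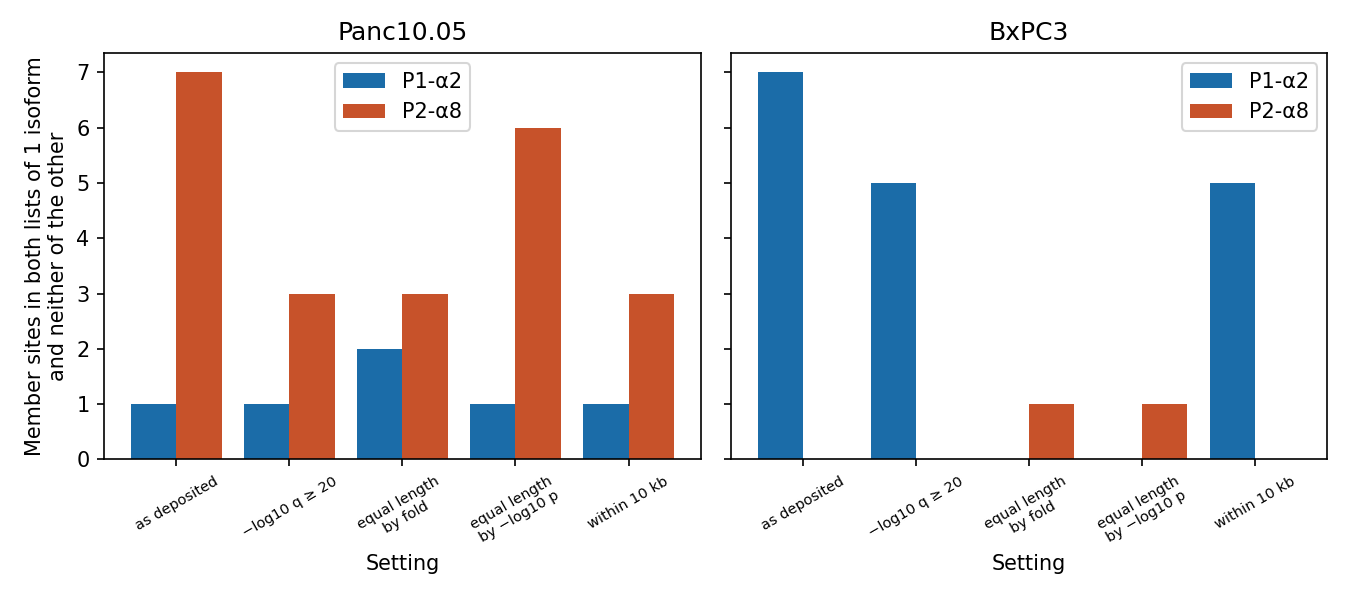
Number of member sites in both lists of 1 isoform and neither of the other (bars; blue P1-α2, orange P2-α8) in Panc10.05 (left) and BxPC3 (right), as deposited and under 4 other settings. The 7 BxPC3 P1-α2 sites fall to 0 when the lists are cut to equal length, and the P2-α8 count in Panc10.05 stays above that of P1-α2 in each setting drawn.

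The lines were also compared with the isoform held. With P2-α8, Panc10.05 had 18 of 48 sites that BxPC3 lacked (37.5%, against 38.4% of all regions), and BxPC3 had 1, the FBP1 site 8.42 kb into the gene (2.08%, against 4.07%). Cut to equal length these became 3 and 3 by fold, and 2 and 4 by −log10 p. Without the second Panc10.05 P2-α8 list Panc10.05 had 30. With P1-α2, Panc10.05 had 1 of 43, the CLK2 site (2.33%, against 9.28%), and BxPC3 had 8 (18.6%, against 18.6%), of which 4 were at PPARGC1A. At equal length these became 3 and 6 under either ranking, and without 1 list Panc10.05 had 2 to 9, the highest without the first Panc10.05 P1-α2 list, and BxPC3 9 to 14, the highest without its second list. The doxycycline dose was higher in BxPC3 for both isoforms, so line and dose cannot be told apart.

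Between guides in ASPC1, few member sites were specific. The comparisons of sgP1 and of sgP2 share the sgNC lists. Of 27 sites, sgNC had 2 that sgP1 lacked (7.41%, against 8.97% of regions), the PCK2 promoter and the CPNE6 site, and sgP1 had 0 (against 0.409%). Against sgP2, sgNC had 1 of 27 (3.70%, against 7.20%), 9.06 kb before FBP1, and sgP2 had 0 (against 0.407%). Of 21 sites, sgP2 had 1 that sgP1 lacked, the PCK2 promoter (4.76%, against 4.32%), and sgP1 had 0 (against 2.75%). The PCK2 promoter site was thus held by both lists of sgNC and of sgP2 and by neither of sgP1. It had a −log10 q of 10.2 and 5.21 in sgNC and 12.1 and 9.82 in sgP2. At a −log10 q of at least 20 none of these guide-specific sites was left. At equal length, by fold or −log10 p, sgP1 had 1 and sgNC 0, which turns the direction, and sgP2 had 2, against 1 (fold) or 2 (−log10 p) for sgNC. Leaving out the second sgNC list raised the sgNC count to 8 against sgP1 and 11 against sgP2.

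With the P1-specific antibody, 5 member peaks were listed in 4 libraries, and each lay on a pan-HNF4α peak listed for its guide. They were the PCK2 site past its 3′ end (3 lists), the PSME2 and RNF31 site (1 sgP2 list, fold 5.10) and the FBP1 site 31.6 kb into the gene (1 sgP2 list, fold 6.81). Of the 3 merged sites none was specific to a guide, whereas 36.0% of all regions of these 4 lists were specific to sgP2 and 0.0638% to sgNC.

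The other genes of the pathway were counted from a list of 46 enzymes, transporters and regulators of glycolysis and gluconeogenesis, all of which matched the gene table. They had peaks in both lists for 43 genes in Panc10.05 P1-α2, 45 in P2-α8, 44 in BxPC3 P1-α2 and 29 in BxPC3 P2-α8. In ASPC1 it was 30 with sgNC, 29 with sgP1 and 31 with sgP2, and with the P1-specific antibody 1 with sgNC and 15 with sgP2. In every group but sgNC with the P1-specific antibody, the share of the list was above that of all genes, for example 93.5% against 74.5% in Panc10.05 P1-α2 and 67.4% against 52.0% in sgP2; this difference was not tested. In all 14 pan-HNF4α lists, 22 of the 46 genes had a peak. LDHA, the lactate dehydrogenase subunit of muscle, had one in all 18 lists. In 17 lists a peak lay near PC (pyruvate carboxylase, the first enzyme of gluconeogenesis), GAPDH, PFKFB4 (a regulator of phosphofructokinase) and the neighbouring hexokinase genes HK1 and HKDC1.

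Isoform-specific sites near the pathway genes were counted in the same way. In Panc10.05, P2-α8 had 21 of 266 sites, at 17 genes (7.89%, against 10.9% of all regions) and P1-α2 had 7 at 5 genes (2.63%, against 3.64%). Cut to equal length, P2-α8 had 13 by fold and 16 by −log10 p, and P1-α2 had 18 by either, so the direction turned. The highest-ranked of P2-α8 were near PFKL, the liver phosphofructokinase (percentiles 91.9 and 82.7), NR3C1, the glucocorticoid receptor (66.3 and 80.6), and KLF15, a fasting-induced regulator (77.2 and 51.4). Those of P1-α2 were near PGK1, phosphoglycerate kinase (54.3 and 66.5), PFKFB2 (28.3 and 50.7) and LDHA (28.7 and 39.0). In BxPC3, P1-α2 had 54 of 221 sites, at 34 genes (24.4%, against 28.2%), among them sites near LDHB, a lactate dehydrogenase subunit (86.9 and 70.2), and PGK1 (80.4 and 75.6). P2-α8 had 0 (against 0.129%). At equal length P1-α2 had 4 by fold and 5 by −log10 p, and P2-α8 had 6 and 4. Cutting these lists was added after the uncut counts were seen.

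The patterns of the members over the 18 lists were compared with those of all other protein-coding genes by the percentile of the best peak within 50 kb, with 0 for no peak. Lists of 1 line share their cells, so the correlations below describe these lists. The nearest to PCK1 was SLC43A3, a membrane transporter (r = 0.983), then RBMXL2 (r = 0.978) and MYBPC1 (r = 0.977). The nearest to PCK2 were IKZF4, RPS26 and ERBB3, neighbours with the same peak (r = 0.975 each). For FBP1 they were CCDC201 (r = 0.952), TMC7 (r = 0.945) and IGFBP1, an insulin-like growth factor binding protein of liver (r = 0.942), and for FBP2 PARN (r = 0.959), CAPN3 (r = 0.939) and GANC (r = 0.934). FBP1 and FBP2 share the peak that decides this measure in most lists. PPARGC1A was nearest to LOC124904248, SERF1A and LOC107986373 (r = 0.997 each), and PKLR to ANKRD26, YME1L1 (both r = 0.960) and UFC1 (r = 0.953).

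The window of 50 kb decided a few peaks. Just inside it lay a BxPC3 P1-α2 peak 49.9 kb from PCK2 (percentile 8.09), and just outside a Panc10.05 P2-α8 peak 50.1 kb from PCK1 (percentile 33.4). With a window of 10 kb the 69 sites became 30.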

How the data were processed

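HNF4α ChIP-seq of 32 libraries is described by the labels; the 18 immunoprecipitated libraries with a peak list were analysed and the 14 inputs were not used here. The labels' protocols state a double crosslink, disuccinimidyl glutarate before formaldehyde. Reads were aligned with Bowtie2 2.2.9 and peaks called with MACS2 2.2.7 on hg38, as far as the submitters' processing notes name tools and builds; mm10, also named there, does not apply to these human lines. The notes give no role for each tool. Each deposited list belongs to 1 library, so peaks were called per library. The deposited fold enrichment is a linear ratio, the p-value and q-value are deposited as −log10, and the deposited score repeats the −log10 q. Panc10.05 and BxPC3 lists start just above a −log10 q of 8 and ASPC1 lists just above 2. Lists held 260 to 41808 peaks; read depth is not given in the sources used here, so no counting interval can be given.

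Gene spans came from a RefSeq table of GRCh38.p14 and promoters (250 bases before to 50 after a start) from RefSeq on the same build. The build was checked: in 18 of 18 lists more summits lay within 1 kb of a promoter start (5.60% to 19.1%) than after a shift of 100 kb (1.15% to 3.93%). The plus strand of PCK1 is general knowledge. Summits (column 2 plus column 10) within 50 kb of a span were assigned to the gene, and peaks of the 18 lists that overlap by at least 1 bp were merged into sites (python 3.11.15, pandas 2.3.3). Percentiles rank the authors' fold within a list. Background shares cover 20033 protein-coding genes or all merged regions. The merging was checked on simulated data and against bedtools 2.31.1.

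No test was made: the rule chose the genes on these peaks, and groups hold 2 lists. The members and gene lists were chosen with earlier results of these data known. All members are named, with sites in at least 2 lists described singly or, when weak or in few lists, together. Of the items picked by these rules, 1 site and 1 pathway gene are not reported here. Of the 46 pathway genes, those named have the highest mean percentile among isoform-specific sites (up to 3 per direction) or a peak in the most lists; the genes with the most similar pattern are the 3 with the highest Pearson r outside overlapping windows. Alternatives were windows of 10 and 100 kb, a −log10 q of at least 8 or 20, lists of equal length by fold or −log10 p, reciprocal overlap of 50%, summits within 100 bp, and leaving out each list. The half-site search, equal length for pathway sites and the genes compared with PPARGC1A were chosen after seeing the data.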

Additional observations from a re-analysis of the deposited data

Results flagged for a closer look

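The difference between isoforms in peaks near the 6 genes had opposite directions in the 2 induced lines, with every list on its side. The mean of P1-α2 minus P2-α8 was -17.5 peaks in Panc10.05 and 14 peaks in BxPC3 for all members together. For FBP1 it was -4 in Panc10.05 and 2.5 in BxPC3, and for FBP2, which shares sites with FBP1, it was -3 and 1.5. For PPARGC1A it was -3.5 and 7.5. The share of all protein-coding genes that split in opposite directions in this way is not given here, and the difference between the lines was not tested. List length moved with it: BxPC3 P1-α2 lists held 41808 and 33737 peaks against 12681 and 14666 with P2-α8, and the part of list length in these differences was not tested. Per 10000 peaks of the list, all members together had the lower value with P1-α2 in both lines. For the single genes this scale is not given, so their directions hold for plain counts only.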

How the results depend on the processing

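No paired analysis was possible because the results come from no test: they are counts of sites and genes in peak lists. Of 160 counts under the 8 settings that keep every list, 111 stayed within 1.5 times the count as reported and 49 did not. The number of member sites was 30 within 10 kb, and members with peaks in both BxPC3 P2-α8 lists fell to 3 there; the smaller window holds fewer peaks by construction. In the Panc10.05 isoform comparison, P2-α8 sites numbered 3 at a −log10 q of at least 20, 3 with equal length by fold and 3 within 10 kb, and P1-α2 sites 2 with equal length by fold. In BxPC3, equal length, whether by fold or −log10 p, gave 0 for P1-α2 and 1 for P2-α8. For sgP1 against sgNC, either equal length gave 1 for sgP1 and 0 for sgNC, and sgNC had 1 at a −log10 q of at least 8, 0 at 20 and 1 within 10 kb. For sgP2 against sgNC, sgP2 had 2 with either equal length and 0.5 (a mean over replicates) with reciprocal overlap, and sgNC had 2 at a −log10 q of at least 8, 0 at 20, 2 with equal length by −log10 p and 2 with summits within 100 bp. For sgP1 against sgP2, sgP1 had 1 at a −log10 q of at least 8 and with either equal length, and sgP2 had 0 at 20. With the P1-specific antibody, sgP2 had 1 at a −log10 q of at least 20 and 0.5 with reciprocal overlap. Between lines with P1-α2, Panc10.05 had 3 with either equal length, 2 with reciprocal overlap, 2 with summits within 100 bp and 0 within 10 kb, and BxPC3 had 5 within 10 kb. Between lines with P2-α8, Panc10.05 had 3 and 2 with equal length by fold and by −log10 p and 8 within 10 kb, and BxPC3 had 3, 4 and, with reciprocal overlap, 2. The causes of these changes were not tested.

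Leaving out 1 list makes a single list enough for its group. Members with peaks then numbered 6 in Panc10.05 P1-α2, Panc10.05 P2-α8 and BxPC3 P1-α2, 5 in BxPC3 P2-α8, sgNC and sgP2, 4 to 5 in sgP1, and with the P1-specific antibody 0 to 1 in sgNC and 1 to 3 in sgP2. Specific sites ranged from 1 to 2 (P1-α2) and 9 to 19 (P2-α8) in Panc10.05, and from 9 to 13 and 0 to 1 in BxPC3. They ranged from 0 to 1 (sgP1) and 3 to 8 (sgNC), from 0 to 1 (sgP2) and 1 to 11 (sgNC), and from 0 to 4 (sgP1) and 1 to 3 (sgP2). With the P1-specific antibody they ranged from 0 to 2 for sgP2 and were 0 for sgNC. Between lines they ranged from 2 to 9 (Panc10.05) and 9 to 14 (BxPC3) with P1-α2, and from 19 to 30 and 1 to 2 with P2-α8. Read depth is unknown, so a missing peak is one not listed, not one shown to be absent.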
